A study of Rattus norvegicus with 48 samples.

Results

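Ptprc and the 60 genes whose expression followed it most closely were described across rat hearts, 61 genes of the 32883 in the deposited tables. Members were chosen among the 13687 genes with a mean normalized count of 10 or more, as those with the highest Pearson r with Ptprc on a log2(normalized count + 1) scale. The 39 libraries not numbered replicate 5 were used for this choice, and genes with a higher r with Myl4, an atrial myosin light chain, were to be left out, which concerned 0 of the first 60. The r of the chosen genes ranged from 0.759 to 0.894. The last members chosen had an r of 0.762, 0.760 and 0.759, and the first genes left out had 0.759, 0.758 and 0.754. All levels and correlations in these 39 libraries were thus used by the choice and are given as a description.

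The left ventricles of female and male Sprague Dawley rats were sequenced, with 47 libraries in 8 groups. From 8 weeks of age the rats were injected subcutaneously on 10 days with saline or with 5 mg/kg per day of the psychostimulant methamphetamine (Meth). Hearts came from rats killed 24 h later (day 11) or after another 30 days without injections (abstinence), and were flushed with buffer on a Langendorff perfusion system beforehand. Each group held 6 libraries, except that of saline-treated females at day 11, in which 5 were analysed here.

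Ptprc encodes CD45, a receptor tyrosine phosphatase on the surface of nucleated blood cells, which sets the threshold of antigen receptor signaling by acting on Src family kinases. The heart holds resident macrophages and smaller numbers of other leukocytes, and more enter it from the blood in inflammation. Hmgb2 encodes a chromatin protein that bends DNA and is abundant in dividing cells and lymphoid tissue. In RNA from whole tissue, fewer cells of a type and less RNA per cell cannot be told apart.

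Symbols came from the study's own tables of changed genes. They could be given to 2 members, Ptprc and Hmgb2, and the other 59 are known here by identifier. The paper lists both named genes as higher with Meth in females after abstinence, so their names came through that comparison. Of 247 genes in 27 lists of leukocyte classes, other cell types and pathways, 4 could be matched to an identifier, so the leukocyte-type label of the members could not be checked against their markers. They are therefore called here by Ptprc, the gene they follow. The promoters of both are shown because they are the members with a symbol. They hold the 250 bases before the RefSeq start in the GRCr8 build, both on the minus strand, printed 5′ to 3′ along the gene. Capitals mark the ETS core GGAAGT or its reverse complement in Ptprc, at chr13:52259747-52259996, and the CCAAT box in Hmgb2, at chr16:37723951-37724200.
Ptprc: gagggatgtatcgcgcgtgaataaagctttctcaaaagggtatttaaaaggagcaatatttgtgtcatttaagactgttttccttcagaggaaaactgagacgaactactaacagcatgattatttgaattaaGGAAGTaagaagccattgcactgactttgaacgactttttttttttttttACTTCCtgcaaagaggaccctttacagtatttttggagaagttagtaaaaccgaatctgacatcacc
Hmgb2: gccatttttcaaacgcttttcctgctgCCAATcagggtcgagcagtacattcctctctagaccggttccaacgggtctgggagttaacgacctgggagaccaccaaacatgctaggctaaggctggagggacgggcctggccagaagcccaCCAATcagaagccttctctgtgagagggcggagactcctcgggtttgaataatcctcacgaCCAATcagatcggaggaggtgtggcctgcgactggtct
The ETS core, the letters bound by a family of transcription factors that includes leukocyte regulators, occurred 1 time on each strand of the Ptprc promoter and 0 times in that of Hmgb2, and on either strand in 19.2% of 33469 promoters. The CCAAT box occurred 3 times in the Hmgb2 promoter, and 34.0% of promoters held it on either strand. The ETS core was 1 of 8 motifs searched on both strands. The other 7 had 0 matches in the Ptprc promoter. They were the PU.1 box (GAGGAAGT, which contains the ETS core), the RUNX site (TGTGGT), the interferon-response element, the NF-kB site, the TATA box (TATAAA), the GC box (GGGCGG) and the E-box (CACGTG). They occurred in 2.04%, 14.5%, 3.41%, 42.3%, 12.9%, 30.5% and 5.59% of all promoters. The Hmgb2 promoter held 2 matches to the NF-kB site and 1 to the GC box, and 0 to the other 6. The CCAAT box was added after the sequences were seen. These are matches of letters within the windows shown.

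The libraries held 6661581 to 11314050 counts on genes (median 9020989). A member had a median of 42 counts in a library, with a range from 0 to 767, so that single values of the lowest members are imprecise. All 8 libraries numbered replicate 5, 1 in each group, had sex-specific expression that went against the label. In those labelled female, 4 genes specific to males stood at 86.1 to 116% of the male median, against 0 to 2.43% in other females, and in those labelled male at 7.29 to 11.7%. Sequencing pools followed the time points, so pool and time cannot be told apart. At day 11, saline-treated and Meth-treated males carried rat numbers of different series, so series and treatment cannot be told apart there.

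The high expression of the members was found in 2 hearts, replicates 3 and 4 of Meth-treated females after abstinence. The level of the members in a library was taken as the mean of their log2 CPM (counts of a gene per 1000000 counts of the library), minus the same in the median library. It was 2.42 in replicate 3 and 2.08 in replicate 4. The level was 0.70 in replicate 6 of the same group, and -0.41 to 0.52 in the other 44 libraries. Of the 61 members, 59 were highest of all libraries in replicate 3 and the other 2 in replicate 4. In 60 members both hearts lay above all other 45 libraries, which was so for 2.14% of all eligible genes and for 233 genes that were not members. In 53 members both hearts were in addition at least 2-fold above the median of the other 45, against 0.994% of eligible genes. These hearts carried rat numbers of different series, and their total counts of 9162555 and 8862272 lay close to the median of all libraries.

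**Figure D1:**
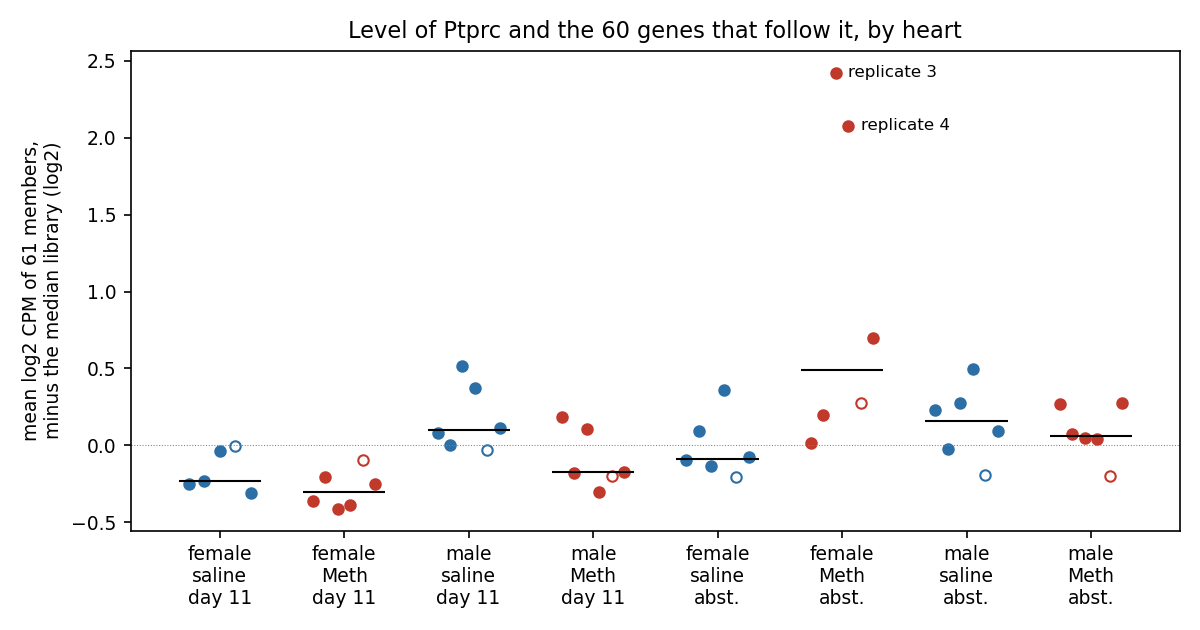
Level of the 61 members in each of 47 libraries (y axis, mean log2 CPM minus that of the median library) by group (x axis), with a point per heart, red for Meth, blue for saline, open for replicate 5, and a line at the group median. Replicates 3 and 4 of Meth-treated females after abstinence lay at 2.42 and 2.08, and all others at 0.70 or below.

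Among saline-treated hearts the members varied less. The level had a median of -0.23 in females at day 11 (range -0.31 to -0.00), 0.10 in males at day 11 (-0.03 to 0.52), -0.09 in females after abstinence (-0.21 to 0.36) and 0.16 in males after abstinence (-0.19 to 0.50). With Meth the medians were -0.30 in females at day 11 (-0.41 to -0.09), -0.18 in males at day 11 (-0.30 to 0.19) and 0.06 in males after abstinence (-0.20 to 0.28). In these 3 pairs of groups the ranges with Meth and with saline overlapped. In females after abstinence the Meth-treated hearts ranged from 0.01 to 2.42, with a median of 0.49, and 3 of 6 lay above all saline-treated hearts.

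Expression of Ptprc in Meth-treated females after abstinence was 24.6, 21.1, 74.0, 45.8, 32.8 and 34.0 CPM in replicates 1 to 6. In saline-treated females after abstinence it was 22.6, 24.0, 23.4, 24.0, 22.5 and 19.7 CPM (22.7 ± 1.59, SD, n = 6). Replicates 3 and 4 were thus the highest of all libraries, and replicate 2 lay within the range of the saline group. In the other groups Ptprc was between 17.1 and 36.4 CPM, with the highest value in a saline-treated male after abstinence.

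Expression of Hmgb2 was 20.0, 24.5, 55.3, 37.4, 24.5 and 25.9 CPM in the same Meth-treated females. Their saline controls had 17.5, 21.5, 15.8, 21.4, 18.3 and 22.8 CPM (19.5 ± 2.73, SD, n = 6). The same 2 hearts were highest, and replicate 1 lay within the saline range. In the other groups Hmgb2 ranged from 15.3 to 34.5 CPM, with the highest value in a saline-treated male at day 11.

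**Figure D2:**
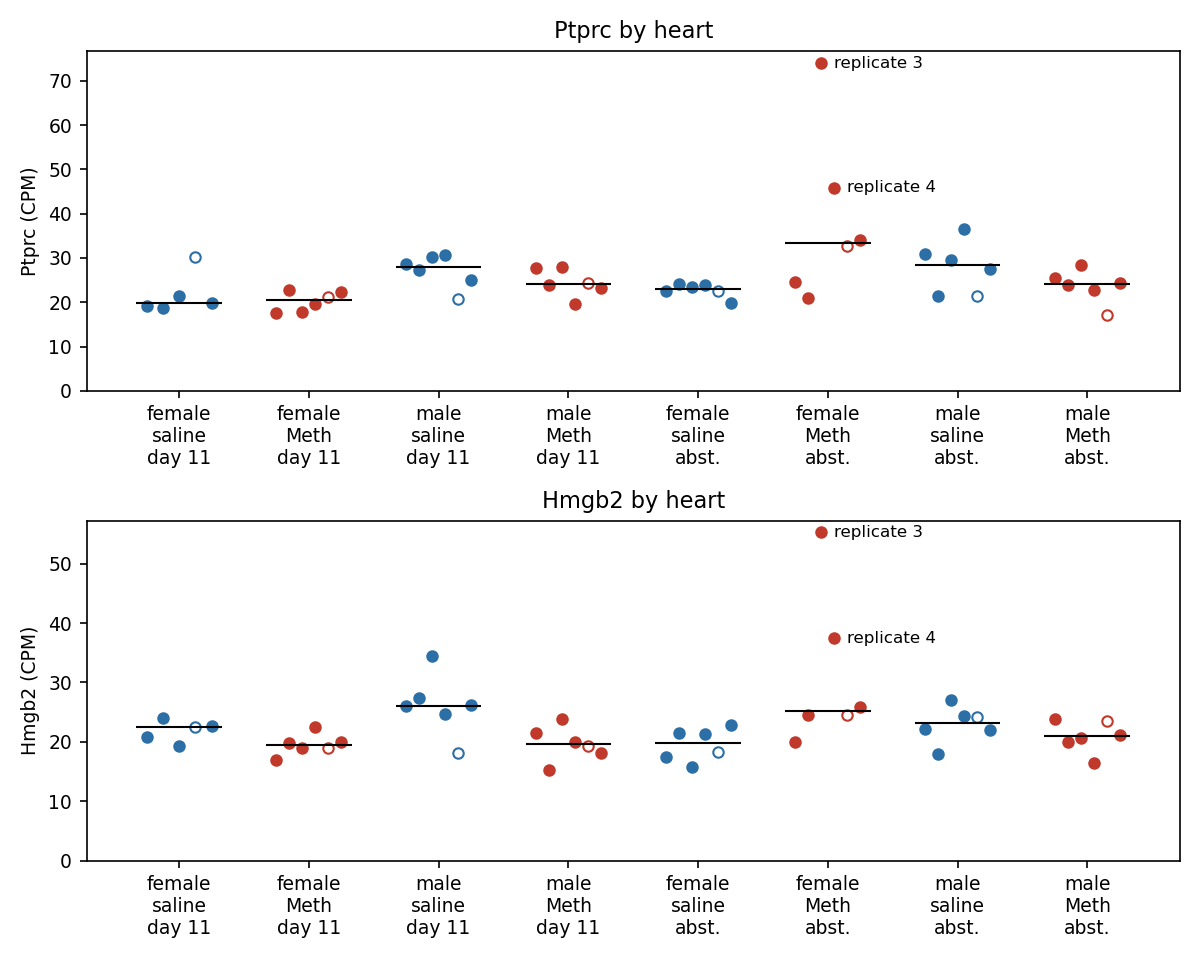
Expression of Ptprc (upper) and Hmgb2 (lower) in CPM on the y axes, with a point per heart by group, red for Meth, blue for saline, open for replicate 5, and a line at the group median. Replicate 3 of Meth-treated females after abstinence had 74.0 CPM of Ptprc and 55.3 CPM of Hmgb2, and replicate 4 had 45.8 and 37.4 CPM.

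The members differed widely in how far they stood above saline in these hearts. Relative to the median of saline-treated females after abstinence, the median member was 4.38-fold higher in replicate 3, with a range from 1.89-fold to 64.8-fold. In replicate 4 it was 3.59-fold higher, with a range from 1.53-fold to 46.9-fold. Replicate 3 exceeded replicate 4 in 59 members, by a median of 0.34 on the log2 scale. The other Meth-treated hearts of this group were nearer to saline, with a median member at 1.46-fold in replicate 6, 1.23-fold in replicate 5, 1.15-fold in replicate 2 and 1.01-fold in replicate 1. All 61 members exceeded all 6 saline-treated hearts in replicate 3, against 15.8% of eligible genes, and all 61 in replicate 4, against 20.9%. In replicate 6, 42 members did so, against 9.87% of eligible genes, and in replicate 5, 23 members, against 13.7%. In replicates 2 and 1 the counts were 12 and 8 members, against 24.6% and 15.2% of eligible genes.

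The member with the highest fold, ENSRNOG00000021334, had 4, 9, 366, 262, 7 and 28 counts in replicates 1 to 6 of the Meth-treated females after abstinence. In their saline controls it had 3, 5, 0, 2, 3 and 2 counts, and in the other 6 groups 1 to 9 counts. It was close to the limit of detection outside these hearts, and replicate 6 was the only other heart with more than 9 counts. A member whose Meth-treated and saline-treated females after abstinence did not overlap was ENSRNOG00000020884, the only such member of 61, against 0.102% of eligible genes. Its Meth-treated hearts had 3.55, 2.83, 26.7, 18.8, 3.49 and 4.25 CPM, and its saline-treated hearts 2.63, 2.76, 2.40, 2.00, 1.12 and 1.70 CPM. Both genes were singled out after their values were seen.

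**Figure D3:**
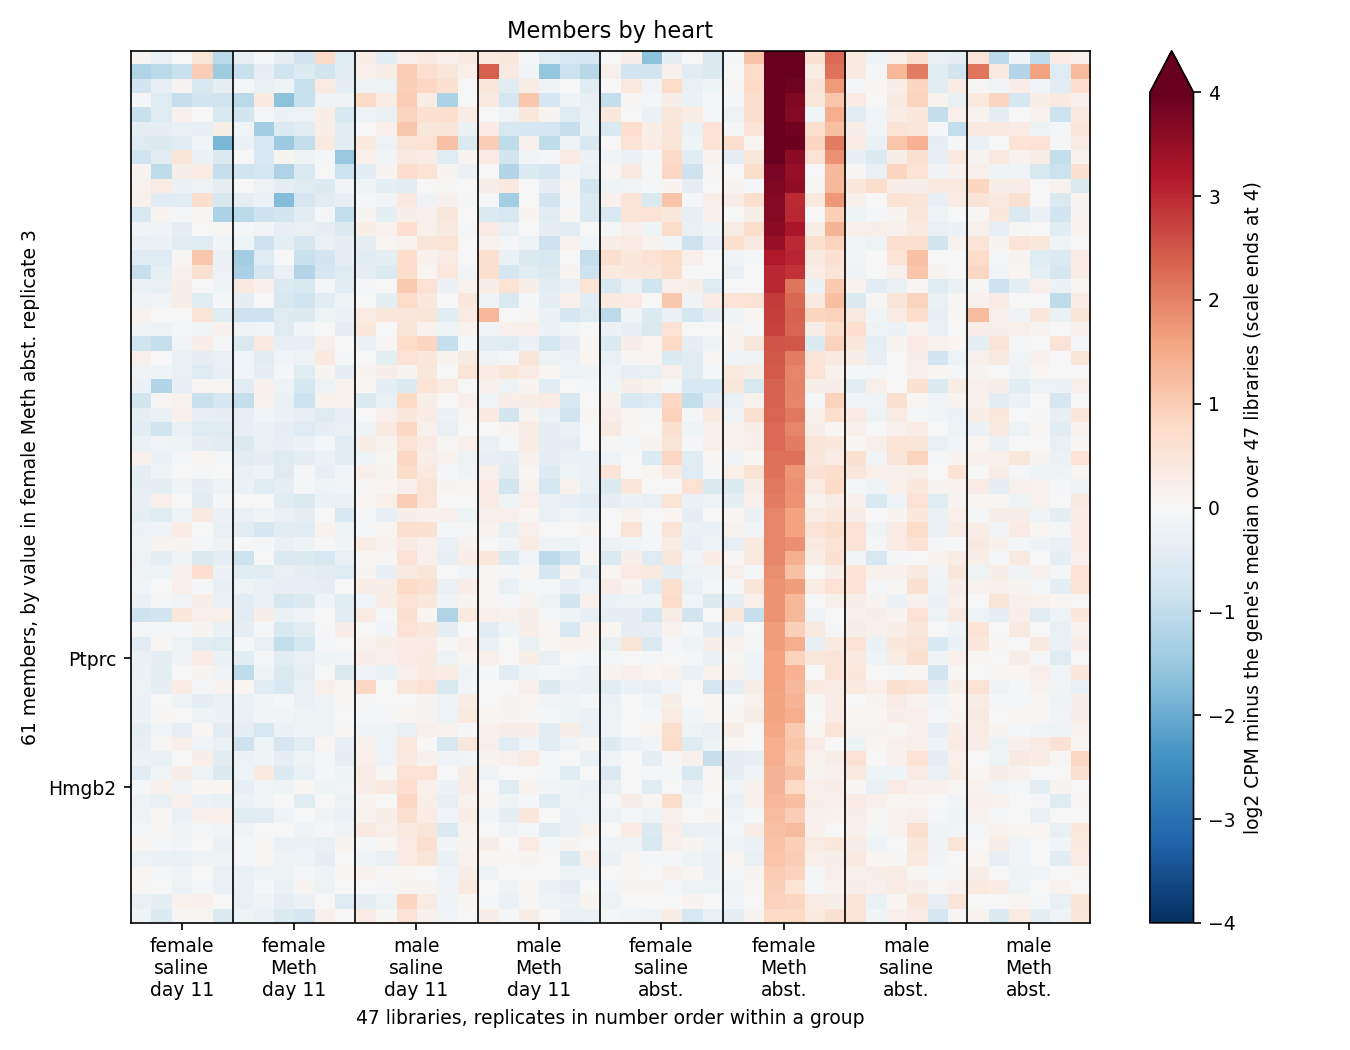
Expression of the 61 members (rows, ordered by their value in replicate 3 of Meth-treated females after abstinence) in 47 libraries (columns, by group), as log2 CPM minus the median of the gene over libraries. Replicates 3 and 4 of Meth-treated females after abstinence form the red columns, with 60 members above all other libraries in both, and Ptprc and Hmgb2 are marked at the left.

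Other genes also stood apart in these hearts. Myl4, which the ventricle expresses at a low level after birth, was at 34.3 CPM in replicate 3 and 24.2 CPM in replicate 4. It was at 0.760 to 13.5 CPM in the other hearts after abstinence and reached 90.5 CPM in a saline-treated female at day 11, whose member level was -0.25. The r of the 60 genes with Myl4 over the 39 libraries was 0.00 to 0.49. Pdgfrb, a growth factor receptor of pericytes and fibroblasts, was between 111 and 145 CPM in all Meth-treated females after abstinence, against 129 to 154 CPM with saline. Myl4 was thus high in the same hearts as the members, and its part in the result was not tested.

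The members followed Ptprc less closely once these hearts were set aside. Over the 37 other libraries of the choice, the r of the 60 genes with Ptprc had a median of 0.57 (0.37 to 0.78), against 0.81 over all 39, and 47 genes had an r over 0.5, against 1.11% of other eligible genes. Over the 19 libraries of day 11 among them, the median r was 0.65, and 53 genes had an r over 0.5, against 7.14% of other eligible genes. Over the 18 libraries after abstinence the median r was 0.44, 17 genes had an r over 0.5, against 2.34%, and 58 were above 0. Among all 1830 pairs of members, the median r was 0.78 over the 39 libraries and 0.47 without these hearts. When the choice was repeated without them, 28 of the 60 genes were chosen again. The 8 libraries of replicate 5 had no part in the choice. In these, 50 of 60 genes had an r with Ptprc above 0, against 48.5% of other eligible genes, with a median of 0.42, and 23 had an r over 0.5, against 7.34%. Without the Meth-treated female after abstinence of replicate 5, 35 of 60 were above 0, against 48.8% of other eligible genes, with a median of 0.11 (n = 7). Then 10 had an r over 0.5, against 15.2%. Much of the higher share among members in the libraries outside the choice thus depended on this library. The points share the library totals and differences between groups, and the correlations describe these libraries.

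**Figure D4:**
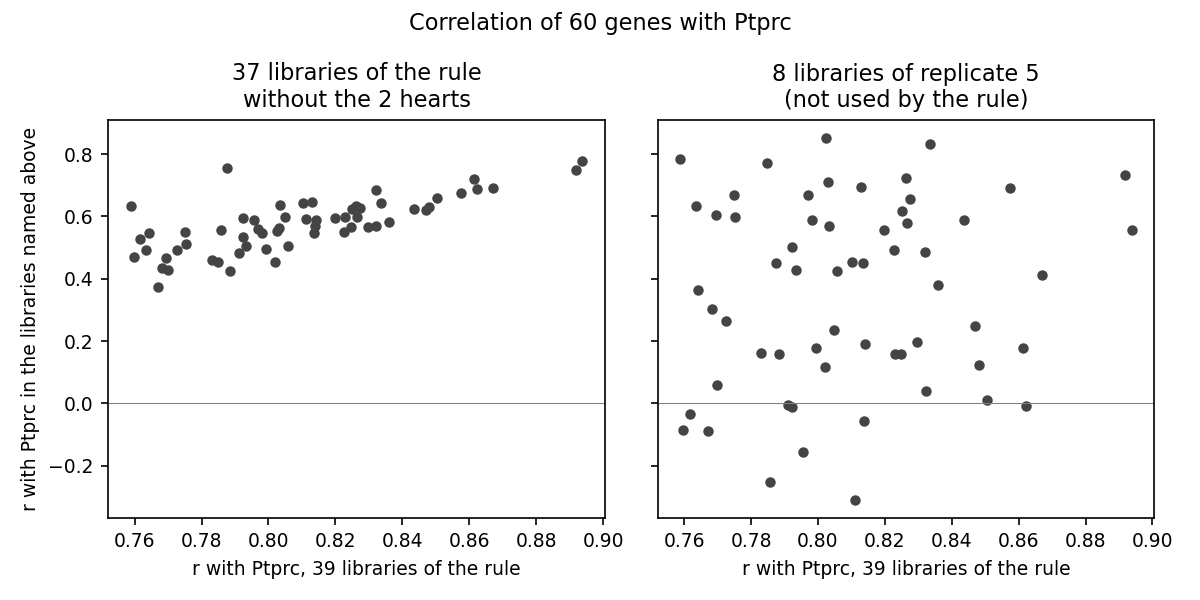
Pearson r of each of the 60 genes with Ptprc over the 39 libraries of the choice (x axes) against its r over 37 libraries without the 2 hearts of highest level (left) and over the 8 libraries of replicate 5 (right). Values on the left lie between 0.37 and 0.78, and on the right 50 of 60 lie above 0.

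To ask whether Meth changed the members, it was compared with saline for each sex and time in an edgeR quasi-likelihood test across all genes, where a call needed an adjusted p (Benjamini-Hochberg) under 0.1. The members were chosen to follow Ptprc in most of these libraries, among them both hearts of highest level, from Meth-treated females after abstinence. A shared direction is thus a product of the choice. Where that group was compared, higher counts of members called, or with a small unadjusted p, also follow from the choice. All are given as a description. Fold changes below are log2 fold changes of Meth against saline, or of the contrast named.

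In females after abstinence, 0 of 60 members tested were called, and 0.00% of all 13545 genes tested. The median fitted log2 fold change was 1.10, against 0.00 for all genes, and all 60 were higher with Meth. Of these, 58 had an unadjusted p under 0.05, against 3.86% of all genes. Without replicate 3 this was 38 members, against 2.72%, without replicate 4 it was 39, against 2.76%, and without both 14, against 1.81%. The log2 fold change of Ptprc was 0.78 (SE 0.24, adjusted p = 0.997 by edgeR), and that of Hmgb2 was 0.69 (SE 0.22, adjusted p = 0.997 by edgeR). The paper, which used DESeq2, reports both genes as significantly higher with Meth in this comparison. Without replicates 3 and 4 the median of the members was 0.26, and the log2 fold change was 0.31 for Ptprc and 0.28 for Hmgb2. Without replicate 3 alone it was 0.49 for Ptprc and 0.44 for Hmgb2. The number of calls differed between fits. DESeq2 on the same libraries called 5 members, against 0.127% of all genes. With all 47 libraries in a single fit, which share 1 estimate of the spread per gene, edgeR called 44 members, against 0.902% of all genes, and DESeq2 called 51, against 0.758%. Ptprc and Hmgb2 were among them in both, with adjusted p of 0.0157 and 0.0149 by edgeR and 0.00423 for each by DESeq2. In the single fit edgeR called 16 members without replicate 3, 21 without replicate 4 and 0 without both, against 0.25%, 0.396% and 0.0554% of all genes. DESeq2 called 19, 25 and 0 members, against 0.266%, 0.396% and 0.0181%. Without replicate 3 neither Ptprc nor Hmgb2 was called in the single fit by either tool.

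**Figure D5:**
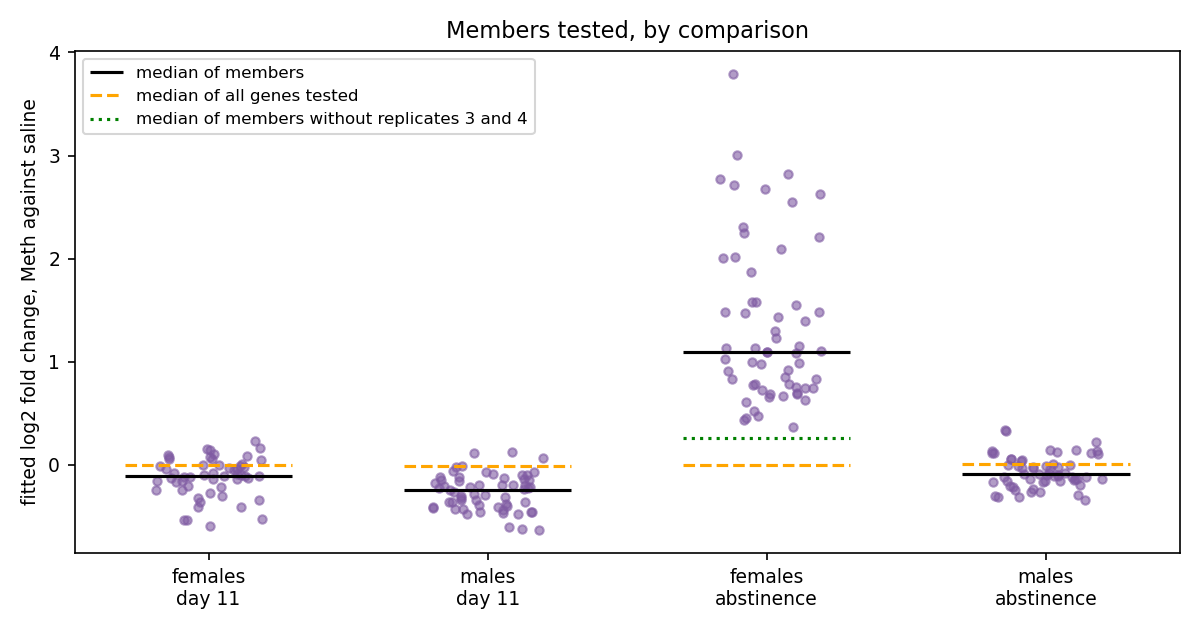
Fitted log2 fold change of each member tested, Meth against saline, in 4 comparisons (y axis), with the median of members (black), of all genes tested (orange, dashed) and, in females after abstinence, of members without replicates 3 and 4 (green, dotted). The medians of members are -0.11, -0.25, 1.10 and -0.09 from left to right, and 0.26 without replicates 3 and 4.

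In males after abstinence, 0 of 59 members tested were called, and 0.00% of all genes. The median log2 fold change was -0.09, 41 members were lower, and 1 had an unadjusted p under 0.05, against 4.79% of all genes. The log2 fold change of Ptprc was -0.23 (SE 0.14, adjusted p = 0.999 by edgeR). The difference of the Meth effect between the sexes after abstinence had a median of 1.16 over 60 members tested, higher in females in all of them. The interaction called 0 of them and 0.00% of all genes, and 52 had an unadjusted p under 0.05, against 4.52% of all genes. This contrast holds both hearts of highest level, which entered the choice, so the excess follows from the choice and is a description. Without replicate 3 of the Meth-treated females the median was 0.81 and 33 members had an unadjusted p under 0.05, against 3.77%. Without replicate 4 the values were 0.96 and 36, against 4.04%, and without both 0.32 and 13, against 3.18%. DESeq2 with all libraries in a single fit called 16 members in this interaction, against 0.18% of all genes.

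In females at day 11, 2 of 54 members tested were called, both lower with Meth, while 4.18% of all genes were called and 2.38% were called lower. ENSRNOG00000013886 had 7.05 to 13.6 CPM with saline (median 7.51, n = 5) and 5.84 to 6.84 CPM with Meth (median 6.16, n = 6). These groups did not overlap, as in 1.18% of eligible genes in this direction, and the log2 fold change was -0.53 (adjusted p = 0.0916 by edgeR). ENSRNOG00000034190 had 3.93 to 8.06 CPM with saline (median 5.71) and 3.05 to 4.88 CPM with Meth (median 3.82), with overlapping groups and a log2 fold change of -0.60 (adjusted p = 0.0996 by edgeR). Each of these calls was lost in 7 or 8 of 12 other settings, with adjusted p from 0.0472 to 0.402 and from 0.0453 to 0.687 over the settings. With 1 library left out, they were called in 3 and 2 of 11 fits. The median over members was -0.11. Ptprc had a log2 fold change of -0.11 (SE 0.12, adjusted p = 0.782 by edgeR), which turned to 0.03 without the library labelled saline-treated replicate 5, and Hmgb2 of -0.16 (SE 0.083, adjusted p = 0.436 by edgeR).

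In males at day 11, 0 of 59 members tested were called, and 0.00% of all genes. Of the members, 56 were lower with Meth, with a median of -0.25, and 13 had an unadjusted p under 0.05, against 14.7% of all genes. This count was 5 without saline-treated replicate 3, against 12.8%, and 20 without saline-treated replicate 5, against 25.4%. It was 6 to 8 without saline-treated replicate 4 or Meth-treated replicate 2, 4 or 6, against 11.29% to 13.63% of all genes. It was 12 to 19 without saline-treated replicate 1, 2 or 6 or Meth-treated replicate 1, 3 or 5, against 11.28% to 14.93%. Ptprc had a log2 fold change of -0.15 (SE 0.11, adjusted p = 0.4999 by edgeR). Hmgb2 had 18.1 to 34.5 CPM with saline (median 26.1, n = 6) and 15.3 to 23.9 CPM with Meth (median 19.6, n = 6). The groups overlapped, and its log2 fold change was -0.41 (SE 0.13, adjusted p = 0.274 by edgeR). Without the library labelled saline-treated replicate 5, 6 members were called, all lower, against 11.5% of all genes, and Hmgb2 had an adjusted p of 0.0348 by edgeR. Without replicate 5 in any group 3 members were called, against 6.54% of all genes. The interaction of Meth with sex at day 11 called 0 of 60 members, of which 0 had an unadjusted p under 0.05, against 0.119% and 7.27% of all genes.

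The Meth effect in females was compared between the time points. The interaction, day 11 minus abstinence, called 1 of 60 members, ENSRNOG00000034190, against 0.233% of all genes, and 0.177% in this direction. In females after abstinence this gene had 4.94, 5.94, 39.7, 29.6, 10.4 and 10.8 CPM with Meth and 2.63 to 5.04 CPM with saline (median 4.08). The difference was -2.68 on the log2 scale (adjusted p = 0.0921 by edgeR). It was high in replicates 3 and 4 and higher than any saline-treated heart in replicates 2, 5 and 6. Without replicates 3 and 4 the difference was -1.59 (adjusted p = 0.0865 by edgeR). With 1 library left out, the gene was called in 7 of 23 fits, those without any other Meth-treated female after abstinence than replicate 3 or without replicate 5 of either group of females at day 11, and not in the other 16. All 60 members had a lower effect at day 11 than after abstinence, with a median of -1.20, and 51 had an unadjusted p under 0.05, against 8.93% of all genes. Most libraries of this contrast entered the choice, so this too is given as a description. Without replicates 3 and 4 the median was -0.43, and 15 had an unadjusted p under 0.05, against 7.21%. In males the same interaction called 0 members, against 0.149% of all genes, with a median of -0.23, and 4 had an unadjusted p under 0.05, against 10.2%.

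Saline-treated hearts were compared between abstinence and day 11, which also differ in age and sequencing pool. In females 1 of 56 members tested was called, ENSRNOG00000017804, while 1.2% of all genes were called and 0.344% were called higher. It had 2.81 to 4.17 CPM at day 11 (median 3.54, n = 5) and 4.46 to 7.83 CPM after abstinence (median 5.61, n = 6), without overlap. Its log2 fold change was 0.72 (adjusted p = 0.0683 by edgeR), and it was called in 4 of 11 fits with 1 library left out. In males 0 of 59 members were called, against 0.0877% of all genes, and 3 had an unadjusted p under 0.05, against 7.86%. In females 8 members did so, against 13.4%. Ptprc differed by 0.06 in females and 0.04 in males on the log2 scale (adjusted p = 0.847 and 0.958 by edgeR).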

How the data were processed

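Per the paper's methods, the authors cleaned reads of stranded mRNA libraries (Trimmomatic 0.38), mapped them to rn6 (HISAT2 2.1.0) and counted them per Ensembl gene (GenomicAlignments). The deposited count of reads per gene is not normalized. The deposited normalized signal, the same counts divided by a size factor per library with DESeq2 1.20.0, was used for the choice of members and for alternatives. CPM was computed from the counts with TMM factors, and log2 CPM with a prior count of 2.

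For every comparison, only its own libraries entered an edgeR 4.0.16 fit (quasi-likelihood test, TMM, filterByExpr) in R 4.3.3, and the adjusted p was taken over all genes tested. The alternatives used DESeq2 1.42.0, limma 3.58.1, other filters and factors, the replicate number as a block, and each library left out. The edgeR fit was tested on simulated counts with genes changed in all libraries of a group. A signal held by only some hearts of a group was not simulated, so that test does not show how the fits treat such a signal. Members, lists and tests were chosen with earlier results of these data known. Alternatives that leave out replicates 3 and 4 of Meth-treated females after abstinence, use only 1 time point for the choice, or use DESeq2 on all libraries were added after the data were seen. Members described by identifier were those called, plus 2 chosen by their values. Of 34 pairs of libraries with the same number, 12 had deviations correlated over 0.1, so the numbers were not taken as pairs. Among the 12 were all pairs of replicate 5, at 0.178 to 0.377, whose sex-specific genes went against the label. Per the paper, each litter was spread over the groups, but the labels name no litter, so litter did not enter the fits. Within groups, all 115 library pairs differed beyond sampling noise. Symbols came from the study's tables, and a RefSeq table without Ensembl identifiers was used for promoters only.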

Additional observations from a re-analysis of the deposited data

Results flagged for a closer look

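In saline-treated females at day 11, the library of replicate 5 had the highest Ptprc, at 30.3 CPM, against 18.8 to 21.5 CPM in the other 4, a gap of 0.766 of the range of the group. Its sex-specific genes went against its label. In saline-treated females after abstinence, replicate 6 had the lowest Ptprc, at 19.7 CPM, against 22.5 to 24.0 CPM in the other 5, a gap of 0.639 of the range. These 2 came from 24 groups of values tested, of the member level, Ptprc and Hmgb2, and about 1 in 20 would be expected by chance. Replicates 3 and 4 of Meth-treated females after abstinence were both high, so that neither stood alone in its group by this measure. The fitted effect of Meth on ENSRNOG00000034190 differed between day 11 and abstinence in females, by -2.68 on the log2 scale. Most libraries of this contrast, with replicates 3 and 4 among them, entered the choice of the gene as a member. Its call was lost in 16 of 23 fits with 1 library left out.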

How the results depend on the processing

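Depth limits the lowest members, and the count of members called in females after abstinence differed with the tool and with the libraries in the fit. It was 0 in the test on its own libraries and 5 with DESeq2. In a single fit of all libraries, edgeR called 44 (16 without replicate 3, 21 without replicate 4, 50 without replicate 5 of any group) and DESeq2 called 51 (19, 25 and 54). The shares of all genes called are given above, except for the fits without replicate 5. The median log2 fold change there moved from 1.10 to 0.26 without both hearts of highest level (0.26 in both single fits) and to 0.21 without replicate 5 as well. The cause was not tested.

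In females at day 11 the 2 calls became 0 with the single fit, an adjusted p under 0.05, the replicate block and limma on the normalized signal with either pseudocount or no filter, and 1 with RLE factors and without a low-count filter. In males at day 11 the 0 calls became 4 with voom and 3 without replicate 5, the latter against 6.54% of all genes. The difference between the sexes after abstinence gave 16 calls with DESeq2 on all libraries, against 0.18% of all genes. The difference between time points in females gave 7 with DESeq2, 21 with edgeR and 35 with DESeq2 in the single fit, and 0 at an adjusted p under 0.05 and with limma on the normalized signal. That contrast holds both hearts of highest level, which entered the choice, so higher counts of members called there follow from the choice. The saline comparison of females gave 0 in the single fit, at an adjusted p under 0.05 and with limma without a filter, and 2 with voom and without replicate 5, and that of males gave 1 with voom. The other counts of this paragraph stand without the share of all genes called in the same fit. They describe the settings, not the members against other genes.

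With each library left out in turn, the members called ranged from 0 to 3 in females at day 11, 0 to 6 in males at day 11, 0 to 1 in the difference between time points in females and 0 to 1 in the saline comparison of females, and were 0 in the other 6 comparisons. The 3 calls came without Meth-treated replicate 5, where 7.07% of all genes were called, and the 6 without saline-treated replicate 5, where 11.5% were. In the saline comparison, fits with 1 call had 0.8465% to 1.995% of all genes called. The median log2 fold change ranged from 0.75 to 1.24 in females after abstinence, -0.15 to -0.06 in females at day 11, -0.31 to -0.19 in males at day 11 and -0.13 to -0.01 in males after abstinence. The difference between time points in females lost its call in 16 of 23 such fits, among them that without replicate 3 of the Meth-treated females after abstinence. It kept the call without both hearts of highest level. The replicate block changed no other call. Of the 60 genes beside Ptprc, 36 were chosen again with Spearman correlation, 30 with a mean of 50 or more, 28 without both hearts, 12 with day 11 only, and 51 to 60 with each library left out. In the libraries of replicate 5, genes with r above 0 ranged from 35 to 55.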

Other observations

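Genes outside the 61 also stood out in replicates 3 and 4 of Meth-treated females after abstinence. Both hearts lay above the other 45 libraries and at least 2-fold above their median in 83 other genes, by up to 9.26 on the log2 scale in replicate 3 and 8.20 in replicate 4. None of these 83 has a symbol here. The counts behind their folds are not given, and where the median is near the limit of detection, the size of a fold depends on the prior count. Cnn2, an actin-binding calponin and not a member, lay above all other libraries in both hearts, with 12.8 CPM in replicate 3 and 15.0 CPM in replicate 4. Replicate 3 was hardly above the next library, a saline-treated male after abstinence at 12.6 CPM. Saline-treated females after abstinence had 6.78 to 11.2 CPM. Fcgr2a, an Fc receptor of myeloid cells, has 2 identifiers whose reads may be shared between near-identical copies. For the first, the lowest value of the Meth-treated females after abstinence was 16.7 CPM, in replicate 3, against 17.2 to 36.5 CPM with saline. For the second the lowest was 4.58 CPM, in replicate 6, and replicate 3 had 4.65 CPM. Both lay within its saline range of 4.30 to 11.4 CPM. The r of the 2 Fcgr2a identifiers with Ptprc was 0.114 and 0.067 over the 39 libraries of the choice, and neither was a member. Over the 37 libraries without replicates 3 and 4 it was 0.403 and 0.353. In 70 genes that were not members both hearts lay below all other libraries.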
